A study of Rattus norvegicus with 12 samples.

Results

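The genes described here are markers of the neurons of the olfactory bulb, the forebrain structure that lies in front of the prefrontal cortex and receives the axons of the nose. They were given as 8 symbols, Cdhr1, Eomes, Tbx21, Doc2g, Th, Calb2, Sp8 and S100a5, and 7 of them were found among the 15939 genes of the table. Eomes was not analysed here. The 8 were chosen because they were high in some libraries of performing rats, so their performing and nonperforming values are a description, with no test.

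RNA of the medial prefrontal cortex of Wistar rats was sequenced in 12 libraries, with 3 in each of 4 groups. Rats were 3 months (young) or 22 months (aged) old and, at each age, either performing, which means trained and tested for attention in an operant task, or nonperforming, which means placed in the same setting at the same age without ever doing the task. No genetic change or drug is given in the labels, and nothing there says which libraries came from separate animals, so spread between libraries may be technical. Libraries are named by age (Y or A), by performance (P for performing, N for nonperforming) and by number, so that AP3 is library 3 of the aged performing group. Slc17a7, a vesicular glutamate transporter of cortical projection neurons, stood between 21896 (AP3) and 42470 (AN2) normalized counts in every library. Its presence does not tell whether tissue of the bulb was also in a library. Depth ran from 22189094 to 42205582 reads. YN3 stood apart, with the choroid plexus gene Ttr, which encodes transthyretin, at 37304 normalized counts against 91.88 or less in the other 11 libraries. YN1 and YP1 carry another title prefix (VP) than the other 10 libraries (U), and the labels do not say what it means.

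In the olfactory bulb, axons of sensory neurons end in glomeruli, where they contact the dendrites of projection neurons, the mitral and tufted cells. Interneurons around the glomeruli and in the granule layer shape that signal, and many of them are replaced through life by neuroblasts that migrate into the bulb. Cdhr1 is a cadherin of the projection neurons, Tbx21 and Eomes are T-box transcription factors of the same cells, and Doc2g belongs to the Doc2 family of C2 domain proteins. Th makes dopamine in interneurons around the glomeruli, Calb2 encodes the calcium binding protein calretinin of other such interneurons, and Sp8 is a zinc finger factor needed to form them. S100a5 is a calcium binding protein of the sensory neurons, whose cell bodies lie in the nose and whose axons reach the outer layer of the bulb. Several of these genes have other known sources, such as lymphocytes for Tbx21 and Eomes, midbrain neurons for Th, and cortical interneurons for Calb2.

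The sequence before the start sites of the markers was searched for short motifs on both strands. RefSeq promoter entries (build GRCr8, whereas reads were placed on Rnor_6.0) were found for 7 of the 8 symbols, all but Calb2. The 250 bases before the start of 3 of them are shown, 5′ to 3′ on the strand of the gene, because each holds a motif of a different kind, in capitals. Tbx21 (chr10:82595254-82595503, minus strand) holds the GC box GGGCGG, bound by factors of the Sp family to which Sp8 belongs. Doc2g (chr1:210725578-210725827, plus strand) holds the core TCACACC of sites bound by T-box factors such as Tbx21. Th (chr1:207508219-207508468, minus strand) holds the cyclic AMP response element TGACGTCA.
Tbx21: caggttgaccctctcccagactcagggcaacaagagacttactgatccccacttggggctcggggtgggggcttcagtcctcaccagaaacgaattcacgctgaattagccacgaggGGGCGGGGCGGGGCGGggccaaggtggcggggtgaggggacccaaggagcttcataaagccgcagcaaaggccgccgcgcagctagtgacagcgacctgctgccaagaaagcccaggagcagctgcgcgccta
Doc2g: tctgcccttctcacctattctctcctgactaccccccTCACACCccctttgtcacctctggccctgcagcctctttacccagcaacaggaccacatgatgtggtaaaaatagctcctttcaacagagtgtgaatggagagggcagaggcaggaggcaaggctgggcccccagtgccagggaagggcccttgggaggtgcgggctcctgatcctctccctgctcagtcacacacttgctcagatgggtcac
Th: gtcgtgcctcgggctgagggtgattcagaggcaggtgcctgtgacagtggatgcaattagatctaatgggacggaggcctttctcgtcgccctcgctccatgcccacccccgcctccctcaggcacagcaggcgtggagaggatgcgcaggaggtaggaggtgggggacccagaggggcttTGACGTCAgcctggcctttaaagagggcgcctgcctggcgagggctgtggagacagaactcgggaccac
The GC box was present in 3 of the 7 (Cdhr1, Tbx21 and Sp8), against 30.5% of the 33469 promoter entries cut to the same length, and the 3 matches in Tbx21 overlap each other by 1 base. The T-box core was present in 1 of the 7, against 3.22%, and the cyclic AMP element in 1, against 1.59%. The palindromic site of Ebf factors (0.738% of all entries) and the homeodomain core TAATTA (4.86%) were in 0 of the 7. No motif of the 5 was common to the markers, and a match is a description of letters only.

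All 3 projection neuron markers were highest in AP3 and next highest in YP2 and AP1. Values are normalized counts, reads divided by a size factor of the library, and in bulk tissue fewer cells of a type and less RNA per cell cannot be told apart. Cdhr1 (ENSRNOG00000013330) had 372.4, 317.1 and 403.2 normalized counts in YN1, YN2 and YN3, and 362.4, 373.3 and 493.2 in AN1, AN2 and AN3. Its values were 296.6, 6016 and 855.5 in YP1, YP2 and YP3, and 5231, 1866 and 8405 in AP1, AP2 and AP3. Performing libraries thus ranged from below to far above every nonperforming one, from 0.795 times the nonperforming median of 372.9 in YP1 to 22.5 times in AP3, with 2.29 in YP3, 5 in AP2, 14 in AP1 and 16.1 in YP2. Its group means were 364 ± 43.6 in young nonperforming, 2389 ± 3153 in young performing, 410 ± 72.6 in aged nonperforming and 5167 ± 3270 in aged performing rats (SD, n = 3).

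Tbx21 (ENSRNOG00000009427) was close to absent in nonperforming rats, with 10.59, 2.143 and 6.912 normalized counts in YN1 to YN3 and 3.463, 17.18 and 0 in AN1 to AN3. It had 3.941, 202.3 and 11.46 in YP1 to YP3 and 201.6, 55.74 and 271.7 in AP1 to AP3. All 3 aged performing libraries and YP2 lay above the highest nonperforming value, and YP1 and YP3 lay within the nonperforming range. Doc2g (ENSRNOG00000018029) had a higher base, with 161.7, 121.1 and 447 in YN1 to YN3 and 94.65, 203.4 and 187.8 in AN1 to AN3. It had 225.6, 1227 and 188.4 in YP1 to YP3 and 1211, 436.4 and 1787 in AP1 to AP3, and AP2 did not exceed YN3.

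Interneuron markers had the same 3 leading libraries. Th (ENSRNOG00000020410) had 48.12, 38.57 and 27.65 normalized counts in YN1 to YN3, 73.87, 58.24 and 47.44 in AN1 to AN3, 39.41, 648.2 and 94.2 in YP1 to YP3 and 422.5, 137.6 and 883.3 in AP1 to AP3. Only YP1 of the performing libraries lay within its nonperforming range. Calb2 (ENSRNOG00000016977) had 276.2, 286.1 and 467 in YN1 to YN3, 221.6, 307.4 and 178.9 in AN1 to AN3, 235.5, 1567 and 437.3 in YP1 to YP3 and 1767, 511.2 and 2409 in AP1 to AP3. YP1 and YP3 did not exceed YN3, and AP2 did so by little. Sp8 (ENSRNOG00000005943) had 25.02, 10.71 and 4.608 in YN1 to YN3, 40.4, 22.91 and 32.62 in AN1 to AN3, 16.75, 138.4 and 33.1 in YP1 to YP3 and 174.6, 30.84 and 285.5 in AP1 to AP3. Only YP2, AP1 and AP3 exceeded its nonperforming range, while AP2 fell inside it.

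S100a5 (ENSRNOG00000011748), the marker of sensory axons, differed from the other 6 in that all 6 performing libraries lay above all 6 nonperforming ones. It had 0, 0 and 0.768 normalized counts in YN1 to YN3 and 4.617, 5.728 and 0 in AN1 to AN3. It had 28.58, 395 and 14 in YP1 to YP3 and 392.9, 29.65 and 1319 in AP1 to AP3. In YP1, the library lowest of all 12 in Cdhr1, S100a5 rested on 29 reads, with a 95% Poisson interval of 19.1 to 41 normalized counts, against 2.1 to 12.5 for AN2, the highest nonperforming library. Such intervals cover counting error only. Of all 13496 genes tested, 0.245% had all 6 performing libraries above all nonperforming ones, and nothing is read from this here because S100a5 was chosen on these libraries. At least 4 of the 6 performing libraries exceeded the nonperforming maximum for 5 of the 7 markers, all but Doc2g and Sp8, against 6.47% of the genes tested. Nothing is read from this share either, since all 7 markers were chosen on these libraries.

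**Figure D1:**
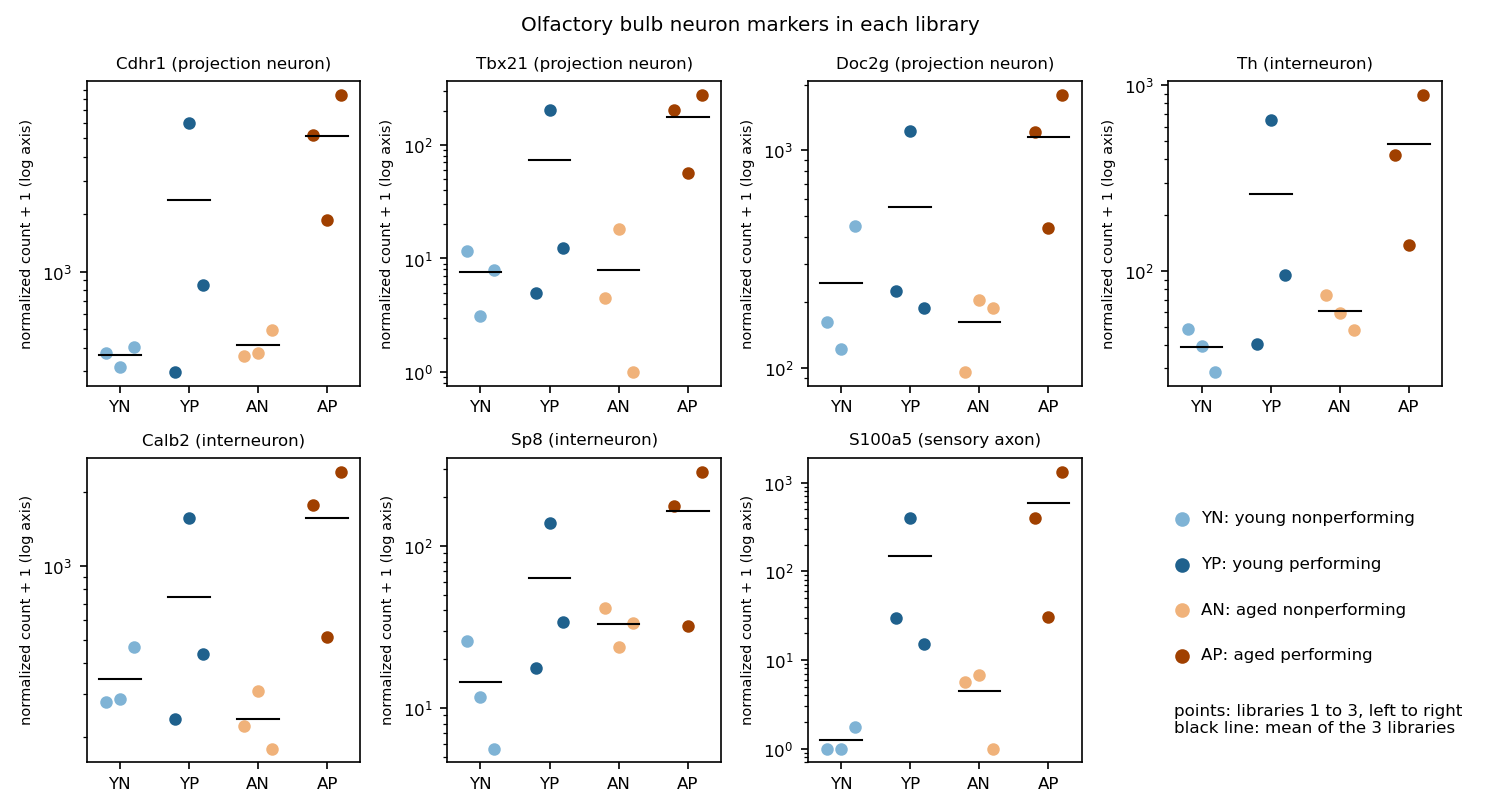
Normalized count plus 1 on a log axis for each of the 7 markers, by group (YN and YP young nonperforming and performing, AN and AP aged nonperforming and performing); points are libraries 1 to 3 from left to right and the black line is their mean. YP2, AP1 and AP3 lie highest for every marker, with Cdhr1 at 6016, 5231 and 8405, and AP2 lies between them and the nonperforming libraries for every marker except Doc2g and Sp8.

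On the log2 scale (1 added to each value) performing libraries exceeded nonperforming ones, averaged over age, by 2.54 for Cdhr1, 3.45 for Tbx21, 1.76 for Doc2g, 2.23 for Th, 1.60 for Calb2, 1.87 for Sp8 and 5.88 for S100a5. Without YP2, AP1 and AP3 the same differences were 1.34, 1.98, 0.75, 0.96, 0.55, 0.51 and 3.66, with AP2 then the lone aged performing library. In young rats the difference was 1.67 for Cdhr1 and 1.81 for Tbx21, and in aged rats it was 3.42 and 5.08. The young and aged values were 0.855 and 2.668 for Doc2g and 0.709 and 2.488 for Calb2. They lay closer together for Th (1.829 and 2.639), S100a5 (5.534 and 6.229) and Sp8 (1.88 and 1.86). The young and aged differences were not tested against each other. Between the VP libraries, YP1 was below YN1 for Cdhr1 (-0.33), Tbx21 (-1.23), Th (-0.28), Calb2 (-0.23) and Sp8 (-0.55) and above it for Doc2g (0.48) and S100a5 (4.89). Among the U libraries all 7 differences were positive, from 1.83 for Calb2 to 6.04 for S100a5.

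Between AP3 and the libraries AP2 and YP2 the sensory axon marker differed by larger factors than the projection neuron markers. From AP2 to AP3 the normalized count was 4.51 times as high for Cdhr1, 4.87 for Tbx21 and 4.1 for Doc2g, the projection neuron markers, and 4.71 for Calb2. It was 6.42 times as high for Th, 9.26 for Sp8 and 44.5 for S100a5. From YP2 to AP3 the ratio was 1.4 for Cdhr1, 1.34 for Tbx21, 1.46 for Doc2g, 1.36 for Th, 1.54 for Calb2, 2.06 for Sp8 and 3.34 for S100a5. Between YP2 and AP1 no such gap was seen: AP1 stood at 0.995 times YP2 for S100a5, 0.997 for Tbx21, 0.987 for Doc2g, 0.87 for Cdhr1, 1.13 for Calb2, 1.26 for Sp8 and 0.652 for Th. These are differences between single libraries, with no test.

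The markers were also compared after the nonperforming level was taken off. The excess of a marker over its nonperforming median was divided by the excess of Cdhr1 in the same library, a ratio whose level also depends on transcript length and is compared only between libraries. For Tbx21 the ratio was 0.0349, 0.0404, 0.0339 and 0.0332 in YP2, AP1, AP2 and AP3, a range of 1.22 times over these 4 libraries. For Doc2g it was 0.186, 0.213, 0.175 and 0.201, also 1.22 times. Th ranged 1.76 times, with 0.106, 0.0771, 0.0602 and 0.104, and Calb2 1.99 times, with 0.228, 0.306, 0.154 and 0.265. For S100a5 the ratio was 0.0699, 0.0808, 0.0196 and 0.164, a range of 8.37 times. Sp8 had 0.0203, 0.031, 0.0046 and 0.0326, of which the AP2 value rests on an excess of 6.868 normalized counts, with the value itself inside the nonperforming range. In YP3 the Cdhr1 excess was 482.6 normalized counts, and the ratio was 0.324 for Calb2, 0.0962 for Th, 0.0283 for Doc2g, 0.0282 for S100a5, 0.0189 for Sp8 and 0.013 for Tbx21. The Doc2g and Tbx21 ratios of YP3 lay below those of the other 4 libraries. In YP3 both genes were within their nonperforming range, and the 95% counting half-widths of these ratios, from the reads of the marker alone, were 0.0445 and 0.011. These half-widths leave out the spread of the baseline, which ran from 94.65 to 447 for Doc2g and from 0 to 17.18 for Tbx21. The YP3 excesses were 13.67 and 6.27, so whether the proportion to Cdhr1 held in YP3 cannot be told. YP1 has no ratio, since its Cdhr1 lay below the nonperforming median. Taking the excess over the highest nonperforming library instead, Tbx21 ranged 1.38 times and S100a5 9.54 times, while Calb2 ranged 8.51 times and the Doc2g value of AP2 was -0.00768, since YN3 sets the maximum of both. With the nonperforming median of the same age, Tbx21 ranged 1.22, Doc2g 1.26 and S100a5 9.76 times. Th then ranged 2.03 and Calb2 1.64 times, so the order of these 2 depends on the baseline. Their counting half-widths in AP2 were 0.0168 for Th and 0.0323 for Calb2.

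**Figure D2:**
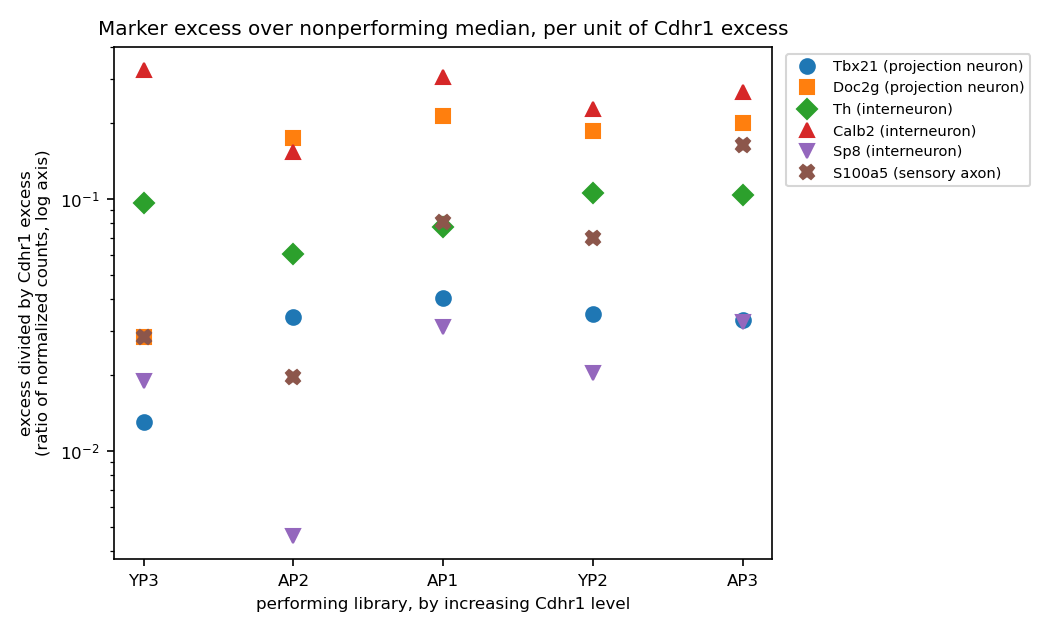
Excess of each marker over its median in the 6 nonperforming libraries, divided by the excess of Cdhr1 in the same library (ratio of normalized counts, log axis), in the 5 performing libraries with more Cdhr1 than that median. Over YP2, AP1, AP2 and AP3, Tbx21 and Doc2g stay within 1.22 times and S100a5 runs from 0.0196 to 0.164, while in YP3 Tbx21 (0.013) and Doc2g (0.0283) lie below their values in the other 4.

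The age comparison in nonperforming rats asked whether the low level of these genes in the cortex differed between 3 and 22 months, and it left out the performing libraries, whose high values chose the markers. Without training, Th averaged 38.1 ± 10.2 normalized counts at 3 months and 59.9 ± 13.3 at 22 months (SD, n = 3 each), a log2 difference of 0.65 ± 0.32 (SE). Sp8 averaged 13.4 ± 10.5 at 3 and 32 ± 8.76 at 22 months, with the largest difference of the 5 tested markers, 1.43 ± 0.59. Calb2 went from 343 ± 107 to 236 ± 65.5 (-0.53 ± 0.30), Doc2g from 243 ± 178 to 162 ± 58.8 (-0.42 ± 0.53) and Cdhr1 from 364 ± 43.6 to 410 ± 72.6 (0.16 ± 0.21). In limma 0 of the 5 markers that passed the filter on low values passed an adjusted p of 0.05 (0.857 for each), as did 0% of the 13122 genes tested, with 229 at an unadjusted p under 0.05. edgeR called 0 genes and DESeq2 called 8 (0.061%), with an adjusted p of 0.939 for each of the 5 markers. Young and aged values overlapped for all 5, against 8.04% of the tested genes whose groups did not overlap. Tbx21 and S100a5 were too low in nonperforming libraries to be tested. Without YN3 the difference was 0.44 for Th, 0.88 for Sp8, -0.29 for Calb2 and 0.13 for Doc2g, which then changed sign.

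Other genes of the bulb, from lists drawn up from general knowledge of its cell types and with results of these data already known, were compared between performing and nonperforming libraries in 1 fit. In limma 0% of 13496 genes passed for performance averaged over age (smallest adjusted p = 0.0768), with 1368 at an unadjusted p under 0.05, and 0 in edgeR. DESeq2 on the recovered reads called 114 genes (0.845%), 92 higher and 22 lower in performing libraries, and 89 (0.659%) for performance in aged rats and 0 in young rats. The median difference over all genes was -0.002. Without YP2, AP1 and AP3 limma called 0, and 214 genes had an unadjusted p under 0.05.

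Among projection neuron genes other than the markers, 7 of 9 were higher and 2 lower in performing libraries, with a median difference of 0.47, and 0 passed in limma. The 3 most abundant were Reln, a secreted glycoprotein (0.35), Tbr1, a T-box factor that deep cortical neurons also carry (-0.34), and Pcdh17, a protocadherin (-0.39). DESeq2 called 3, namely Shisa3, Spp1 and Nmb, and these, like the further genes singled out below, were chosen after their values were seen. Shisa3 had 51.24, 693.1 and 120.9 normalized counts in YP1 to YP3 and 764, 143.5 and 892.2 in AP1 to AP3, against 20.78 to 69.29 in nonperforming libraries, a difference of 2.74 ± 0.62 (SE, limma adjusted p = 0.475, DESeq2 adjusted p = 5.13e-06). AP3, AP1 and YP2 were its 3 highest libraries and YP1 was its lowest performing one. Spp1, the osteopontin gene, was at 1219, 1174 and 2097 in YP2, AP1 and AP3, but AN3 also had 346.9, above YP3 and AP2. The glutamate transporter gene Slc17a6, which bulb projection neurons use, differed by 0.40.

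Transcription factors of bulb interneurons were higher in performing libraries for 12 of 14 genes, with a median difference of 0.73, and 0 passed in limma or DESeq2. The 3 most abundant were Meis2, a homeodomain factor (0.55 ± 0.23, SE), Etv1, an ETS factor (-0.02 ± 0.08), and Nr2f1, a nuclear receptor that cortical neurons also carry (-0.09 ± 0.13). Sp9, the closest relative of Sp8, had 165.6, 174.6 and 239.1 normalized counts in YP2, AP1 and AP3 and 29.92 to 44.34 in the other performing libraries. Its nonperforming libraries ranged from 7.68 to 67.21, so that only YP2, AP1 and AP3 exceeded them, as for Sp8.

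Of the genes of dopamine synthesis and handling other than Th, 7 of 10 were higher, with a median of 0.17, and 0 passed in limma. Among the most abundant were Qdpr, which regenerates the cofactor of Th (-0.11 ± 0.27, SE), and Maoa, a dopamine degrading oxidase (-0.21 ± 0.12). Slc6a3, the dopamine transporter, was the 1 gene called by DESeq2, at 83.98, 56.5, 17.79 and 146.2 normalized counts in YP2, AP1, AP2 and AP3. It had 4.942 or less in the other 8 libraries. Slc18a2, the vesicular monoamine transporter, had 17.74, 14.13, 14.23 and 31.62 in the same 4 libraries and 3.463 or less elsewhere.

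Among interneuron effector genes 9 of 10 were higher, with a median of 0.27, and 0 passed in limma. Gad1 and Gad2, which make GABA, differed by 0.48 ± 0.25 and 0.19 ± 0.18 (SE), and Synpr, a synaptic vesicle protein, by 0.21 ± 0.14. DESeq2 called 2, Trh and Gng4. Trh, a peptide hormone precursor, had 581.9, 113.3, 498.2, 119.8 and 851.7 normalized counts in YP2, YP3, AP1, AP2 and AP3, all above the nonperforming range of 8.662 to 37.63, while YP1 had 20.69. Neuroblast genes were higher for 6 of 9, with a median of 0.10, and 0 passed in limma or DESeq2. Their most abundant members were Tubb3, a neuronal tubulin (-0.24), Robo2, a guidance receptor (-0.17), and Cd24, a surface glycoprotein (-0.12). Dcx, which encodes the microtubule protein doublecortin, had 1597, 1858 and 2367 in YP2, AP1 and AP3, against 992.7 or less in every other library.

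Olfactory sensory neuron genes were higher for 9 of 11, with a median of 0.22, and 0 passed in limma. The 3 most abundant were Gng13, a G protein subunit (0.14 ± 0.32, SE), Adcy3, the adenylyl cyclase of odorant signalling (-0.32 ± 0.11), and Ncam2, an adhesion protein of sensory axons (-0.38 ± 0.30), all 3 of which brain neurons also express. DESeq2 called 3, Stoml3, Gfy and Cngb1. Stoml3, a membrane protein of sensory cilia, had 46.31, 399.8 and 20.37 normalized counts in YP1 to YP3 and 927.1, 51 and 1740 in AP1 to AP3, against 9.984 to 38.5 in nonperforming libraries. Gfy, a Golgi protein of sensory neurons, had 3.941, 31.93 and 2.546 in YP1 to YP3 and 38.52, 2.372 and 125.5 in AP1 to AP3, against 1.154 or less. Cngb1, a subunit of the odorant transduction channel, had 7.883, 15.38 and 8.911, then 33.39, 9.488 and 84.97, against 6.737 or less. All performing values of Gfy and Cngb1 lay above the nonperforming ones, as for 0.245% of genes tested, but the AP2 value of Gfy rests on 2 reads and that of Cngb1 on 8, so the gap is not beyond counting error. From AP2 to AP3 Stoml3 was 34.1 times and Cngb1 8.96 times as high, and from YP2 to AP3 they were 4.35 and 5.53 times as high, larger factors than the 4.51 and 1.4 of Cdhr1. From YP2 to AP1 Stoml3 and Cngb1 were 2.32 and 2.17 times as high, unlike S100a5 (0.995) and Cdhr1 (0.87). The other 8 listed genes with enough reads for such a ratio ranged from 0.64 to 1.92 from AP2 to AP3, all below Cdhr1. From YP2 to AP3 they ranged from 1.06 to 2.23, with Ano2 (2.23), Gnal (1.66) and Kirrel2 (1.41) above the 1.4 of Cdhr1 and the rest below it. From YP2 to AP1 they ranged from 0.866 to 1.48. Omp, the classical marker of mature sensory neurons, was not analysed here. Cnga2, Cnga4, Rtp1 and Rtp2, also on the list, did not pass the filter on low values. Cnga2 stood at 0 in all nonperforming libraries and at 25.68 in AP1 and 41.5 in AP3. Rtp2 had 14.13 in AP1 and 27.66 in AP3. The highest value of Rtp1 was 8.892, in AP3, and that of Cnga4 was 7.883, in YP1.

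Olfactory ensheathing glia wrap the sensory axons, and 7 of 8 of their tested genes were higher, with a median of 0.52 and 0 passing in limma. Among the most abundant were Fabp7, a fatty acid binding protein (0.81 ± 0.32, SE), and Sox10, a glial transcription factor (0.34 ± 0.19). DESeq2 called Frzb and Prss56. Frzb, a secreted Wnt inhibitor, had 812.6, 571.6, 960.5, 313.1 and 1917 normalized counts in YP2, YP3, AP1, AP2 and AP3, against 128.1 to 298.8 in nonperforming libraries and 234.5 in YP1. Prss56, a serine protease, had 150.2, 62.92, 30.84 and 153.1 in YP2, AP1, AP2 and AP3, against 25.7 or less in nonperforming libraries.

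**Figure D3:**
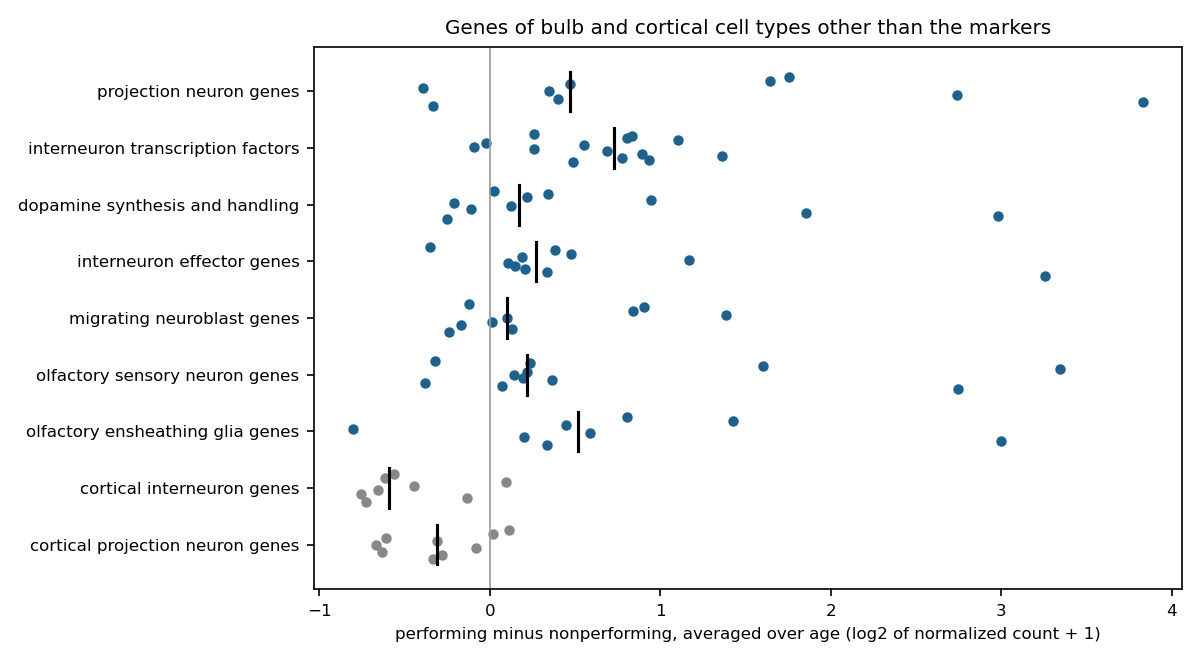
Difference between performing and nonperforming libraries, averaged over age (log2 of normalized count plus 1), for the tested genes of each list other than the markers; each point is a gene and the black bar is the median. Medians lie between 0.10 and 0.73 for the 7 bulb lists in blue and at -0.59 and -0.31 for the cortical lists in grey, and 0 of these genes passed in limma.

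Genes of other sources of the markers were read beside them. Of 5 midbrain dopamine neuron genes in the table, 3 (En2, Pitx3 and Lmx1b) stayed under 10 normalized counts in all 12 libraries, Slc6a3 was high in the libraries where Th was high, and Aldh1a1, an aldehyde dehydrogenase, differed by 0.25 ± 0.26 (SE). Of 8 T and NK lymphocyte genes in the table, 5 stayed under 10 in all 12 libraries, and the T cell receptor subunit Cd3e ranged from 1.977 to 10.18. The coreceptor gene Cd8a had 37.85, 25.68 and 33.59 in YP2, AP1 and AP3 and 9.548 or less elsewhere. The summed level of the 8 lymphocyte genes was 20.36 to 46.85 in young nonperforming, 22.66 to 82.79 in young performing, 24.71 to 27.7 in aged nonperforming and 29.65 to 66.2 in aged performing rats. Among Cajal-Retzius genes, Lhx5 stood at 0 in all nonperforming libraries, at 8.279, 5.136, 8.302 and 7.904 in YP2, AP1, AP2 and AP3, and at 0 in YP1 and YP3. Ebf3, a transcription factor of the same list, had 76.88, 66.77, 20.16 and 94.85 in those 4 libraries and 19.73 in YP3, against 10.59 or less in nonperforming libraries. The part of these other sources in the marker levels was not tested.

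Cortical genes stood on the other side of 0. For cortical projection neurons 7 of 9 genes were lower in performing libraries, with a median of -0.31, and for cortical interneurons 7 of 8, with a median of -0.59, and 0 passed in limma or DESeq2. The summed cortical projection neuron genes were 36989, 34609 and 28792 normalized counts in YP2, AP1 and AP3, against 33903 to 53721 in nonperforming libraries. Only AP3 lay below that range, whose lower end was YN3. The nonperforming libraries other than YN3 ran from 40072 to 53721, and YP2, AP1, AP2 (39401) and AP3 all lay below them. Most of this sum was Slc17a7, at 28485, 26661 and 21896 in YP2, AP1 and AP3, against 26302 to 42470 in nonperforming libraries. The summed cortical interneuron genes were 14422, 11459 and 11427 in the same 3 libraries, against 16435 to 53325, and AP2, at 16263, was also below that range. Cck was the largest part of this sum, at 7140, 6319 and 6267 in YP2, AP1 and AP3, against 7465 to 32015 in nonperforming libraries. Sst, the somatostatin gene, differed by -0.76 ± 0.26 (SE) and Vip, the vasoactive intestinal peptide gene, by -0.73 ± 0.28, with limma adjusted p of 0.475 and 0.483. Calb2, which cortical interneurons also carry, was highest in YP2, AP1 and AP3, where Sst stood at 1477, 1076 and 1064 and Vip at 722.7, 435.3 and 639.2. Among nonperforming libraries YN3 was highest for all 3 genes, with Calb2 at 467, Sst at 4812 and Vip at 2605. The part of cortical interneurons in the Calb2 level was not tested. Of the relatives of Calb2 and S100a5, the calcium binding protein genes Calb1 and Pvalb differed by -0.35 and -0.66, and the S100 genes by -0.17 to 0.47.

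Striatal genes followed another order, with summed levels of 14513 in YP3 and 11098 in AN3 against 4806 to 9017 in the other 10 libraries. Penk, a striatal as well as a bulb peptide gene, was highest in YP3, at 4775. The choroid plexus genes summed to 38081 normalized counts in YN3. They were next highest in the libraries that led in the markers, at 678.8 in AP3, 393.9 in YP2 and 327.4 in AP1, against 34.63 to 175.9 in the 5 nonperforming libraries other than YN3. Most of this was the water channel gene Aqp1, at 446.6, 266.1 and 200.3 in these 3 libraries against 13.37 to 160.5 in nonperforming ones, while Ttr had 91.88, 20.11 and 10.27. The part of choroid plexus in the marker levels was not tested. YN3 was also the highest nonperforming library for Doc2g and Calb2 and the lowest for Th and Sp8. Without it the performance differences were 2.04 for Doc2g, 1.72 for Calb2, 2.13 for Th and 1.60 for Sp8.

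**Figure D4:**
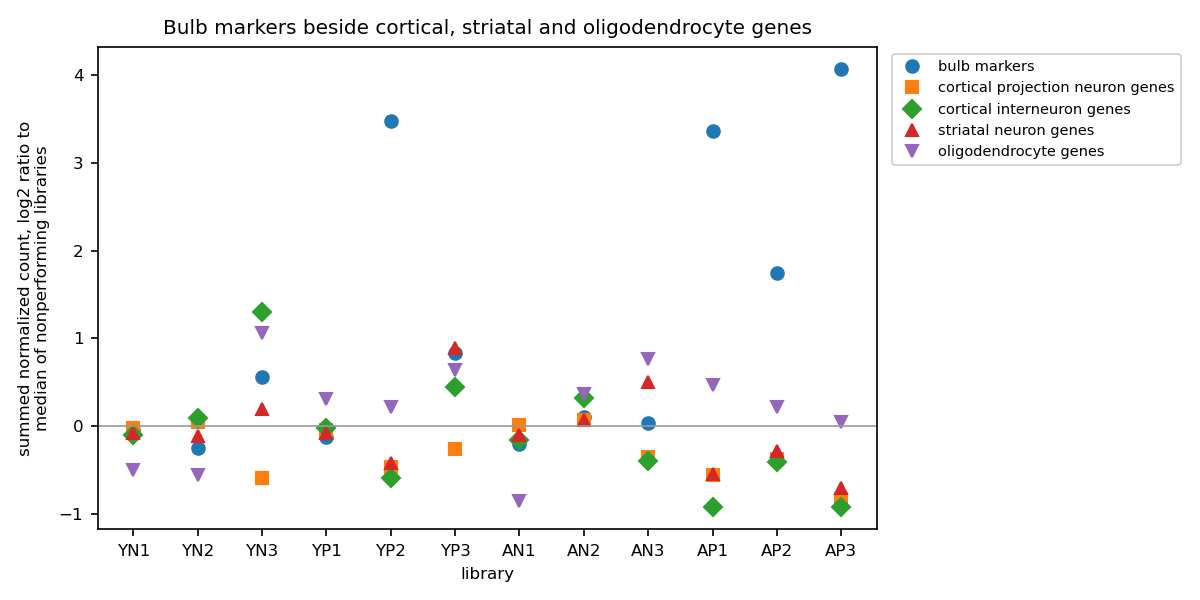
Summed normalized count of the markers and of 4 other gene lists in each library, as a log2 ratio to the median of the 6 nonperforming libraries. The markers lie at 3.48, 3.36, 1.74 and 4.07 in YP2, AP1, AP2 and AP3, and the cortical projection neuron genes at -0.46, -0.56, -0.37 and -0.82 in the same libraries. Most of the cortical projection neuron sum is Slc17a7.

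The genes whose course over the 12 libraries came nearest to the markers were found by the root mean square difference between standardized log2 profiles, where 0 is an identical course. The median over 11749 genes was 1.434, and 106 genes lay under 0.5. The 10 nearest were Cyp39a1 (0.217), Kcnk15 (0.218), Trdn (0.223), Lgr5 (0.268), Wnt5a (0.268), Shisa3 (0.272), Itga10 (0.285), Hcn4 (0.297), Ncbp3 (0.305) and Ppm1j (0.306). Cyp39a1, an oxysterol hydroxylase, had 156.1, 152.8, 73.53 and 389.3 normalized counts in YP2, AP1, AP2 and AP3, against 12.85 to 22.14 in nonperforming libraries. Kcnk15, a potassium channel gene, had 280.3, 270.9, 30.84 and 482.1, against 1.977 to 10.5. Trdn, the triadin gene, had 255.5, 331.3, 54.56 and 579, against 8.895 to 22.27. Hcn4, a pacemaker channel, had a narrower range, from 154.2 to 199.3 in nonperforming libraries to 419.9 in AP3. Of the markers themselves, Th (0.220) and Cdhr1 (0.227) were nearest to their common course and Sp8 (0.480) and Doc2g (0.413) farthest. The markers are part of that course, and all profiles come from the same 12 libraries.

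**Figure D5:**
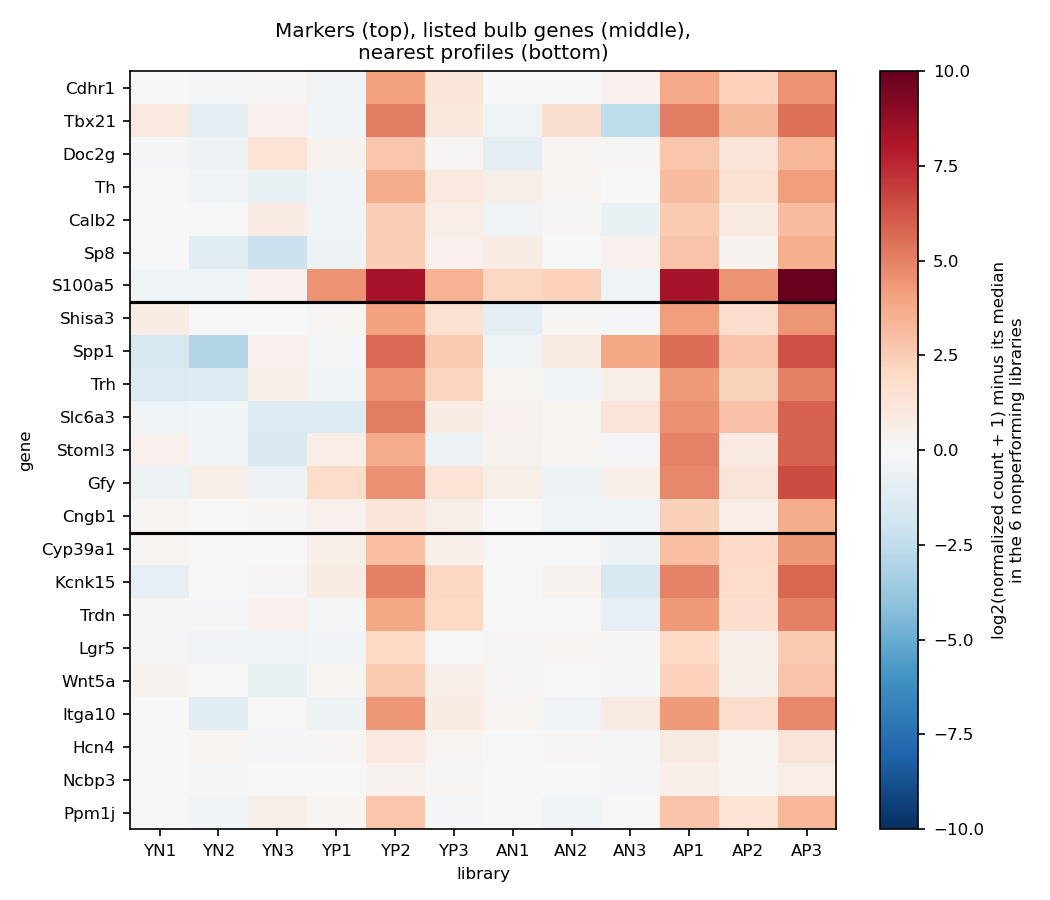
Heat map of log2 (normalized count plus 1) minus the median of the 6 nonperforming libraries, by library (columns) for the 7 markers, 7 listed bulb genes and 9 genes with the nearest profiles (rows; Shisa3, also among the nearest, stands in the middle block). YP2, AP1 and AP3 are the reddest columns, and S100a5 is the 1 marker that is clearly red in YP1, where it had 28.58 normalized counts.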

How the data were processed

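Messenger RNA of rat medial prefrontal cortex was sequenced from stranded TruSeq libraries, per the labels' protocols. The deposited signal is a normalized read count per gene, which the authors made with Trimmomatic, Bowtie2, TopHat2, HTSeq and DESeq2 on Rnor_6.0, per the submitters' processing notes. Tool versions are not given in the sources used here. Each column was a whole multiple of the worth of 1 read for 100% of values (tolerance 0.01 read), and the recovered totals ran from 22189094 to 42205582 reads. Of the per-sample columns, 0 belonged to no sample, and 2 symbols had more than 1 identifier.

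Values were analysed as log2(value + 1), so fold changes understate those of low genes, with limma 3.58.1 in R 4.3.3 (trend on) and Benjamini-Hochberg adjustment at 0.05. Genes needed at least 10 in at least 3 libraries of a fit. Performance was fitted on all 12 libraries (13496 genes, 8 residual and 3.32 prior degrees of freedom). Age was fitted on the 6 nonperforming libraries (13122 genes, 4 residual and 3.04 prior degrees of freedom), because the markers had been chosen on performing ones. edgeR 4.0.16 (quasi-likelihood) and DESeq2 1.42.0 on recovered reads, other pseudocounts (0.5 and 5), no filter, a mean of at least 50, TMM rescaling, title prefix as a covariate and leaving out libraries were alternatives. The scripts were tested on simulated data. Members and lists were chosen with earlier results of these data known. All markers are named, and from each bulb list up to 4 genes that passed in limma or, where 0 passed, the 3 of highest mean. Single values of some genes that this rule names are not reported here. The 10 nearest profiles are genes with a mean of at least 50. Intervals are exact Poisson at 95%. Promoters are the 250 bases before the start in RefSeq's table for GRCr8.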

Additional observations from a re-analysis of the deposited data

How the results depend on the processing

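In limma the count of genes called for performance averaged over age, performance in young rats, performance in aged rats and age in nonperforming rats was 0 under both other pseudocounts, no filter, the stricter filter, TMM rescaling and the title prefix as a covariate, and in edgeR. DESeq2 called 114, 0, 89 and 8 in the same order, so every DESeq2 call of a listed gene depends on the tool. Leaving out 1 library gave 0 to 2 calls for performance averaged over age (2 without YP1 and 2 without YP2), 0 to 2 for performance in aged rats (2 without YP2) and 0 for the other comparisons. Of the ratios to the Cdhr1 excess, 30 were above 0 with the nonperforming median as baseline, 24 with the nonperforming maximum and 29 with the median of the same age. The Sp8 ratio of AP2 was -0.00697 and -0.00119 under these 2. For age in nonperforming rats the Doc2g difference became 0.13 without YN3, and the adjusted p of the 5 markers stayed between 0.646 and 1 over all alternatives. No paired analysis was possible because the labels state no pairs, and numbers were given in accession order. Each group has 3 libraries, and the SD of normalized counts was larger in performing than in nonperforming groups for every marker. Relative to the mean this order did not always hold. Tbx21 had 6.88 ± 9.09 in aged nonperforming and 176 ± 110 in aged performing rats (SD). Tbx21, Sp8 and S100a5 rest on under 50 reads in AP2, which limits their ratios there.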
